A study of Mus musculus with 2 samples.

Results

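The 31 genes described here encode the enzymes, carriers and regulators of mitochondrial and peroxisomal fatty acid oxidation, and they were chosen by symbol from the pathway, with earlier results of these data known. All 31 were among the 32285 genes counted in the deposited files. They comprise 19 mitochondrial enzymes and carriers, 2 regulators, 7 peroxisomal genes and 3 cytochrome P450 genes of the CYP4 family. The libraries came from kidneys of male C57BL/6 mice aged 9 weeks that underwent bilateral ischemia-reperfusion. The control mouse received saline and the other mouse JPI-289, an inhibitor of poly (ADP-ribose) polymerase, at 100 mg/kg, both into the peritoneal cavity just ahead of reperfusion, and the kidneys were taken 24 h after surgery. There was 1 library per condition, made from 1 mouse each per the labels, so no test between the conditions was possible, and each interval below is a 95% interval that covers counting error only.

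Proximal tubule cells, which reabsorb most of the filtrate, draw their energy mainly from fatty acids and are among the cells most sensitive to ischemia. Long-chain fatty acids are activated to acyl-CoA, carried into the mitochondrion by the carnitine shuttle and shortened in repeated cycles of dehydrogenation, hydration, dehydrogenation and thiolysis, while electrons pass through the electron transfer flavoprotein to the respiratory chain. Peroxisomes shorten very long chains and dicarboxylic acids, and CYP4A enzymes hydroxylate the far (omega) end of the chain. Many genes of these routes are induced by the nuclear receptor PPAR alpha, which binds with RXR to a direct repeat of the half-site AGGTCA.

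The stretches ahead of the start of 4 members are shown because Pdk4 had the highest ratio of all members in tubule cells and Eci1 the lowest of the mitochondrial enzymes, and because Etfa and Echs1 held the closest matches to that repeat. They are RefSeq sequences (GRCm38.p6), written 5′ to 3′ on the strand of the gene and cut where GENCODE vM21 places the gene's start further upstream, and capitals mark the match.
Pdk4 (chr6:5496310-5496528, minus strand): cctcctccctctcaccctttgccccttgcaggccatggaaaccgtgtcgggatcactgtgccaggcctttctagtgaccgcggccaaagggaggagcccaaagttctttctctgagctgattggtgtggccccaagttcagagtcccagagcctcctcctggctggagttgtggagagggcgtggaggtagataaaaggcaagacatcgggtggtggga
Eci1 (chr17:24426433-24426640, plus strand): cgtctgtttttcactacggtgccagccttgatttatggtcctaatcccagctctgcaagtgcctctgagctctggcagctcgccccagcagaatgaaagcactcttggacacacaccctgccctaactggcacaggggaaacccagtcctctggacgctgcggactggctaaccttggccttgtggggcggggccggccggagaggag
Etfa (chr9:55512244-55512493, minus strand): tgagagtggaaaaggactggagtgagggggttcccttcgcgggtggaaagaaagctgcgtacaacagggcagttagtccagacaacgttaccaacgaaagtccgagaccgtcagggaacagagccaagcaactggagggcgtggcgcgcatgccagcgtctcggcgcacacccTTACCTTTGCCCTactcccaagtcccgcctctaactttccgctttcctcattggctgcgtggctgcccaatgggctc
Echs1 (chr7:140116477-140116671, minus strand): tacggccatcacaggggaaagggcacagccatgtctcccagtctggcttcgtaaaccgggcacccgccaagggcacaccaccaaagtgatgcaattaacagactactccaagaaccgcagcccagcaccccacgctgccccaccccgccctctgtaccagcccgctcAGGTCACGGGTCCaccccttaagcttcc

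RefSeq promoter windows were matched for 26 of the 31 members, with 28 windows in all, and the others were Decr1, Acaa2, Hsd17b4, Cyp4a10 and Cyp4a14. The 250 bases before each start were searched on both strands for AGGTCA, any 1 base and AGGTCA again. No member window held this repeat with at most 1 mismatch, against 0.484% of all 32851 windows. With at most 2 mismatches it was found in 2 of 28 member windows (7.14%), against 3.24% of all windows. It lay 83 bases before the RefSeq start of Echs1 and, on the opposite strand, 77 bases before that of Etfa. The Echs1 stretch above is cut at the GENCODE start, so the match lies nearer to the end shown. A single half-site, which is also part of the repeat, was found in 5 member windows (17.9%), those of Acadm, Acadvl, Cpt1a, Echs1 and Scp2, against 14.02% of all windows. These matches describe letters in a short window and were not tied to any level below. Hadha and Hadhb, the paired subunits of the trifunctional protein, lie head to head in GENCODE vM21. Hadha starts at chr5:30155162 on the minus strand and Hadhb at chr5:30155248 on the plus strand.

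The control library held 38328760 unique molecular identifiers (UMIs) and the JPI-289 library 35548396. After removal of 540 and 396 cells with over 50% mitochondrial UMIs, 3734 control and 5037 JPI-289 cells remained, and 23 cell barcodes were called in both libraries. Clusters were named from marker genes, with the 31 members and their pathway genes left out of the genes clustered on. The proximal tubule-like (PT-like) class held 1786 control cells with 8113311 UMIs (median 2270.5 per cell) and 1646 JPI-289 cells with 7312179 UMIs (median 1840.5). It was made of 7 clusters, each at least 94.3% from 1 library: clusters 0, 9, 14 and 18 held most of the control cells and clusters 2, 4 and 10 most of the JPI-289 cells. Krt20 and Havcr1, genes of injured tubules, were among the leading genes of cluster 4, Krt20, Plin2 and Srxn1 among those of cluster 2, and the fibrinogen genes Fgg, Fga and Fgb among those of cluster 10. The markers moved with the libraries. In PT-like cells the 22 PT markers summed to 17979 CPM (UMIs scaled to a class total of 1000000) in the control. In the JPI-289 library they summed to 13589, with 11 of 22 at least 2-fold lower. The injured PT list (Havcr1, Krt20, Lcn2, Plin2 and others) summed to 9499 and 21415, with 8 of 12 measured genes at least 2-fold higher. Plin2, which coats lipid droplets, alone made up 553 and 6610 CPM of these 2 sums. Markers of the loop of Henle and distal tubule were at 257 and 96.4 CPM in these cells and those of neutrophils at 29.8 and 68.5. The part of injury, of cell make-up or of cells of other types in the values below was not tested.

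The members took a larger share of the RNA in PT-like cells than in the other named classes of both libraries, podocyte-like cells coming next in the control. They made up 0.960% of all UMIs of PT-like cells in the control against 0.860% in the JPI-289 library, against 0.350% and 0.336% in cells like the loop of Henle and distal tubule (LOH/DT-like), 0.263% and 0.233% in collecting duct-like (CD-like), 0.217% and 0.179% in endothelial-like (EC-like) and 0.516% and 0.252% in podocyte-like cells. Of the 31 members, 22 had their highest level in PT-like cells in the control against 26 in the JPI-289 library. Among these, the intervals of the first 2 classes overlapped for Slc25a20, Cpt2, Decr1, Abcd3 and Hsd17b4 in the control. They also overlapped for Acadm, Acads, Hadha, Hadhb, Eci1 and Etfdh in the JPI-289 library, so neither count was settled. The share of all genes highest in PT-like cells was not taken. The exceptions in the JPI-289 library were Acsl1, Cpt1a and Echs1, highest in LOH/DT-like cells, Slc25a20, highest in neutrophil-like cells, and Ppargc1a, highest in CD-like cells. For Acsl1 (179 CPM in LOH/DT-like and 168 in neutrophil-like cells), Echs1 (130 in LOH/DT-like and 113 in PT-like cells) and Ppargc1a (61.6 in CD-like and 40.4 in LOH/DT-like cells) the intervals of the first 2 classes overlapped, so their order was not resolved.

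The separation between PT-like and other cells was wide for some members and narrow for others. Acaa1b, a peroxisomal thiolase, was at 872 CPM in control PT-like cells and at 14.4 in CD-like cells, and Ehhadh, the peroxisomal L-bifunctional enzyme, at 459 and 15.2. In contrast, Hadha, the alpha subunit of the trifunctional protein, was at 89.6 in PT-like and 137 in LOH/DT-like cells of the control library, and Hadhb at 139 and 133. The 6 members that led in podocyte-like cells of the control (Acsl1, Cpt1a, Hadhb, Eci2, Crot and Cyp4a14) rested on 54 cells with 85725 UMIs in all, of which 17.4% were mitochondrial against 5.24% in the 60 podocyte-like cells of the JPI-289 library. For all of them but Cyp4a14 the interval overlapped that of the second class. Cyp4a14 was at 467 CPM in the former and had no UMI among 83410 in the latter, a log2 ratio of -3.70 or lower when 3 UMIs are taken as the limit that a count of 0 allows. PT markers in the podocyte-like cluster averaged 1.17 log2 units above the median cluster. RNA from outside the cells was estimated, from red blood cell genes, at 12.6% of its control and 8.49% of its JPI-289 UMIs. The part of proximal tubule RNA in the podocyte-like levels was not tested. The plot of summed levels by cell class shows the differences between classes.

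**Figure D1:**
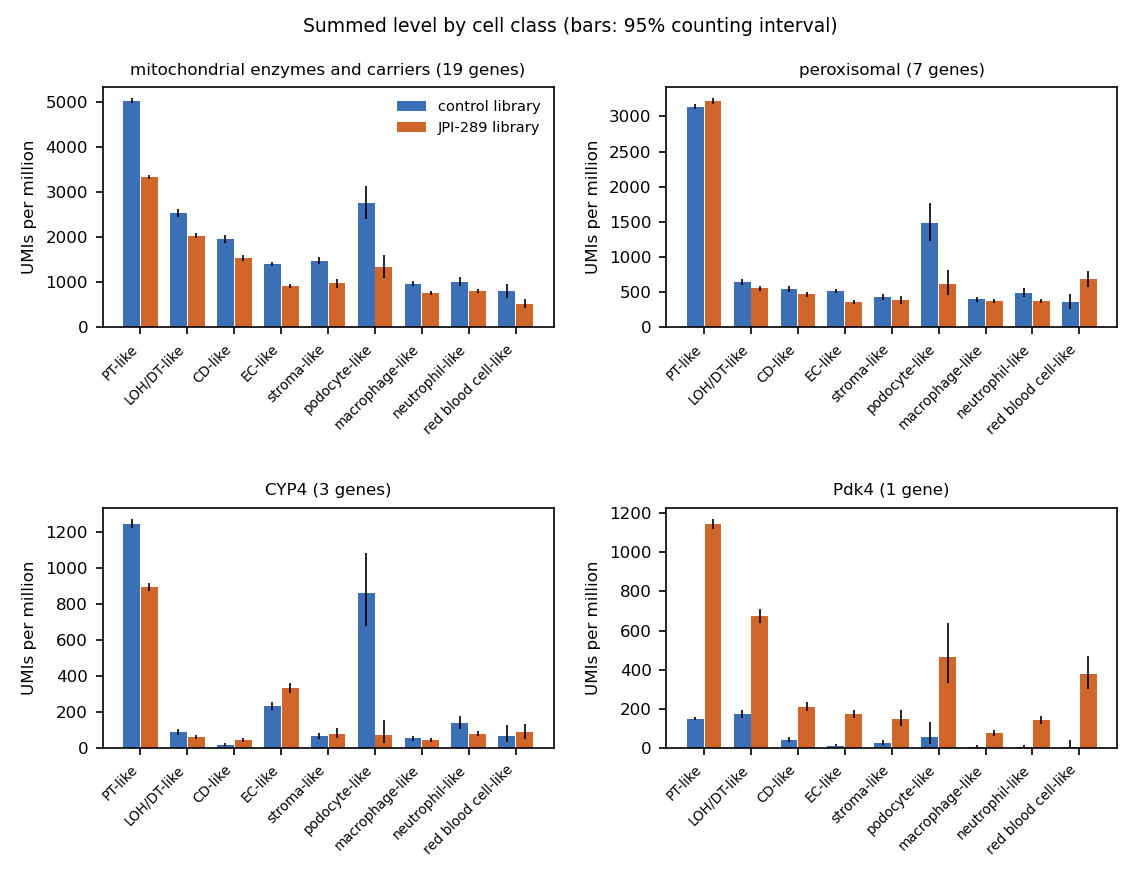
Summed level (CPM, UMIs scaled to 1000000 UMIs of the class) of 19 mitochondrial enzymes and carriers, 7 peroxisomal genes, 3 CYP4 genes and Pdk4 in 9 cell classes of the control (blue) and JPI-289 (orange) libraries, with 95% counting intervals. PT-like bars are the tallest for the mitochondrial, peroxisomal and CYP4 groups in both libraries, and the Pdk4 bar is taller in the JPI-289 library in every class.

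In PT-like cells most mitochondrial enzymes, like most genes, were lower in the JPI-289 library, the peroxisomal sum was about level and Pdk4 was much higher. All 31 members had at least 20 UMIs over both libraries, the minimum for a gene to count as measured. Of these, 8 were at least 2-fold lower in the JPI-289 library (Acaa2, Eci1, Decr1, Etfb, Ppargc1a, Abcd3, Cyp4a10 and Cyp4a14), where 23.5% of all 11302 measured genes were, and 1 was at least 2-fold higher (Pdk4), where 9.02% of all genes were. The share lower, 8 of 31, was thus near that of all genes. The median ratio, as log2 of JPI-289 over control, was -0.48 for the members and -0.19 for all genes, with 21 members below 0 and 10 above. Of all 11302 measured genes 6563 were below 0 as well. The median was -0.60 for the 19 mitochondrial enzymes and carriers, of which 13 were below 0 and 4 at least 2-fold lower. It was -0.39 for the 7 peroxisomal members and -1.68 for the 3 CYP4 members. Ratios were made with 0.5 UMIs added to each sum.

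**Figure D2:**
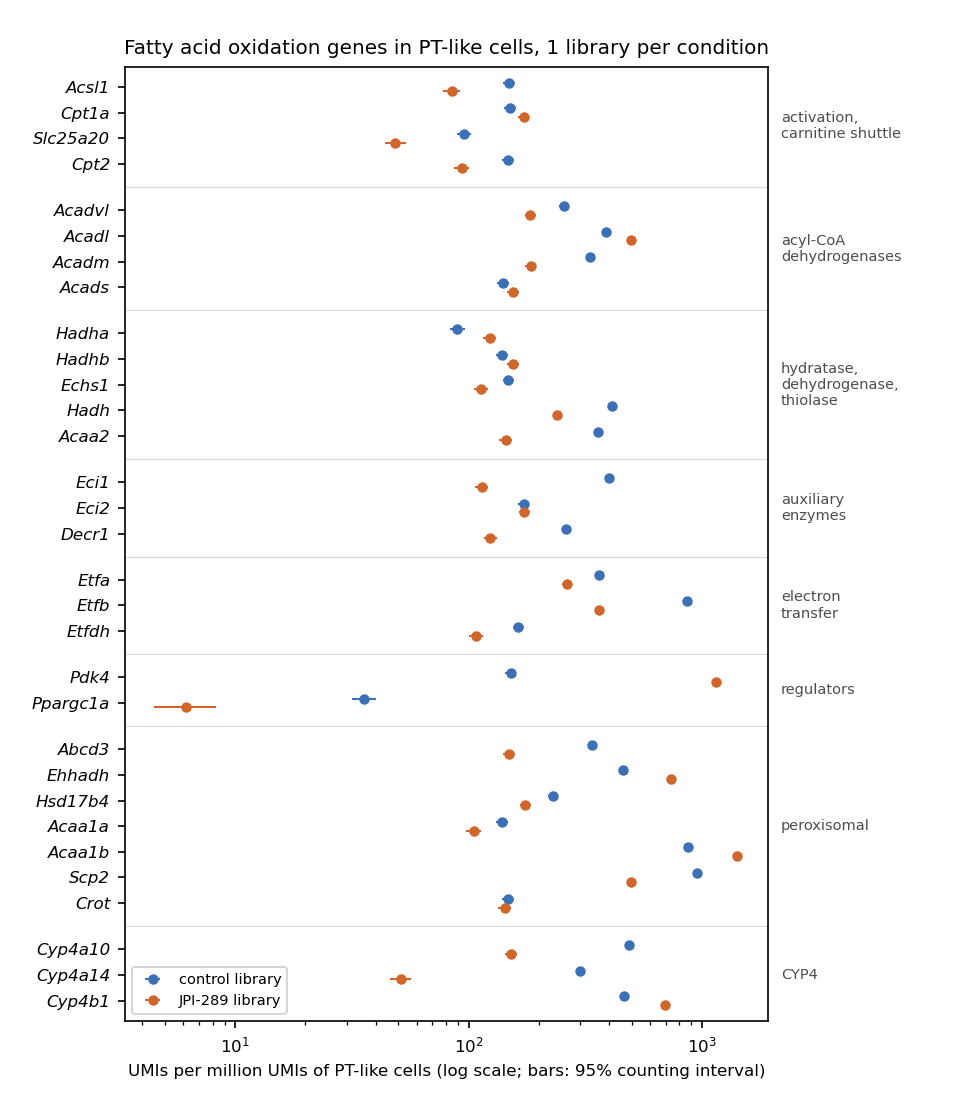
Level of each of the 31 members in PT-like cells (CPM, log scale) in the control (blue) and JPI-289 (orange) libraries, 1 library each, with 95% counting intervals, ordered by role. Pdk4 lies far to the right in the JPI-289 library (1144 against 151), while Eci1, Cyp4a10, Cyp4a14 and Ppargc1a lie to the left.

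The activation and carnitine shuttle genes did not move as a block. Cpt1a, the carnitine palmitoyltransferase of the outer membrane and the controlled entry step, was at 151 CPM in the control against 172 in the JPI-289 library (log2 ratio 0.19, interval 0.08 to 0.31), but its log2 ratio was -0.17 without the PT-like clusters led by injury markers. Cpt2, its partner on the inner membrane, was at 147 and 93.4 (log2 ratio -0.66). Slc25a20, the carnitine-acylcarnitine translocase between them, was at 95.6 and 48.5 (log2 ratio -0.98). Over the 18 settings tried the log2 ratio ran from -1.05 to -0.18 for Cpt2 and from -1.11 to -0.65 for Slc25a20. Both inner steps of the shuttle were thus lower, Cpt2 by little at the upper end of its range. The direction of the entry enzyme was not settled, nor was its contrast with Cpt2. Acsl1, which makes long-chain acyl-CoA, was at 149 and 84.5 (log2 ratio -0.82), and the 4 genes together were at 542 and 399.

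The acyl-CoA dehydrogenases, which take the first electrons from the chain, did not move together and showed no order by chain length. Acadm, the medium-chain enzyme, was at 332 CPM in the control against 184 in the JPI-289 library (log2 ratio -0.85, interval -0.94 to -0.75). Acadvl, for very long chains, was at 256 and 184 (log2 ratio -0.48). Acadl, for long chains, went the other way, at 389 and 495 (log2 ratio 0.35, interval 0.28 to 0.42). Acads, for short chains, was at 140 and 155 (log2 ratio 0.15), with a value of -0.21 when every cell was thinned to 1000 UMIs, so its direction was not settled. The summed level of the 4 genes was 1117 and 1018.

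The later steps of the cycle were also mixed. Hadha and Hadhb, whose product handles long chains at the inner membrane, were at 89.6 and 139 CPM in the control and 123 and 154 in the JPI-289 library (log2 ratios 0.46 and 0.15). The soluble enzymes were lower: Hadh, the 3-hydroxyacyl-CoA dehydrogenase of shorter chains, was at 413 and 240 (log2 ratio -0.78), and Acaa2, the matrix thiolase, at 358 and 144 (log2 ratio -1.31, interval -1.41 to -1.21). Echs1, the short-chain enoyl-CoA hydratase, was at 148 and 113 (log2 ratio -0.39). The log2 ratio of Hadhb was -0.10 with cells thinned to 1000 UMIs. Of the 50-base words of its whole transcript, 62.4% also occur in transcripts of other genes, mostly a copy named Gm13910. The counts of Hadhb may thus be uncertain.

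Of the auxiliary enzymes, which deal with double bonds of unsaturated fatty acids, Eci1 stood lowest. Eci1, an enoyl-CoA isomerase of the mitochondrion on chromosome 17, was at 400 CPM in the control against 114 in the JPI-289 library (log2 ratio -1.82, interval -1.93 to -1.71). Decr1, the 2,4-dienoyl-CoA reductase, was at 261 and 124 (log2 ratio -1.08). Eci2, an isomerase also found in peroxisomes, was at 172 and 173 (log2 ratio 0.01, with either sign among the settings tried). Electron transfer genes were lower as well. Etfb, the beta subunit of the electron transfer flavoprotein, was at 861 and 363 (log2 ratio -1.25, interval -1.31 to -1.18). Its partner subunit Etfa was at 360 and 264 (log2 ratio -0.45), and Etfdh, which hands the electrons to ubiquinone, at 163 and 108 (log2 ratio -0.60). The paired subunits therefore differed in the size of their ratios. For Etfb 67.3% of the 50-base words of its transcript also occur in Gm45233, so its reads may be shared.

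The 2 regulators moved in opposite directions. Pdk4 encodes a kinase that inhibits pyruvate dehydrogenase and so spares glucose when fatty acids are burned. It lies at chr6:5483351-5496309 on the minus strand and was at 151 CPM in the control (1229 UMIs) and 1144 in the JPI-289 library (8362 UMIs), a log2 ratio of 2.92 with an interval of 2.83 to 3.0. Ppargc1a encodes PGC-1 alpha, a coactivator of mitochondrial biogenesis and of PPAR alpha. It lies at chr5:51454250-51567726 on the minus strand and was at 35.7 CPM (290 UMIs) and 6.15 (45 UMIs), a log2 ratio of -2.52 with an interval of -3.02 to -2.08. Of all members these had the highest ratio and, after Cyp4a14, the lowest.

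The peroxisomal sum was close, at 3139 CPM in the control against 3215 in the JPI-289 library, but its members did not move together. Acaa1b was higher, at 872 and 1409 (log2 ratio 0.69, interval 0.65 to 0.74), and so was Ehhadh, at 459 and 736 (log2 ratio 0.68). Abcd3, the transporter PMP70 that brings acyl-CoA into the peroxisome, was lower, at 337 and 149 (log2 ratio -1.18, interval -1.28 to -1.08). Thus the entry transporter and this thiolase lay on opposite sides of 0. Scp2, a lipid carrier and thiolase for branched chains, was at 953 and 498 (log2 ratio -0.94). Hsd17b4, the D-bifunctional enzyme, was at 230 and 175 (log2 ratio -0.39), and Acaa1a, the other thiolase, at 139 and 105 (log2 ratio -0.40). Crot, which makes medium-chain acylcarnitine for export, was at 148 and 143, with either sign among the settings tried. Acaa1a and Acaa1b share 34.0% and 35.5% of their 50-base words, and Scp2 shares 41.4% with a pseudogene, so their counts may be split or lost.

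The CYP4 genes also diverged. Cyp4a14, an omega hydroxylase at chr4:115486200-115496142 on the minus strand, was at 301 CPM in the control (2439 UMIs) and 51.1 in the JPI-289 library (374 UMIs), the lowest ratio of all members (log2 -2.55, interval -2.72 to -2.40). Its neighbour Cyp4a10, at chr4:115518264-115533649 on the plus strand, was at 486 and 152 (log2 ratio -1.68). Both CYP4A genes were therefore over 2-fold lower. Cyp4b1, which belongs to another branch of the family, was at 463 and 692 (log2 ratio 0.58, interval 0.52 to 0.64). Cyp4a10 shares 30.5% of its 50-base words with other genes, mostly Cyp4a32, and Cyp4a14 shares 0.245%.

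Shares of cells with a UMI gave the same picture at equal depth for most members. Thinned to 1000 UMIs, 1339 control and 1137 JPI-289 PT-like cells remained and 447 and 509 shallower cells were left out. Among the exceptions, Acads was found in 15.2% of control and 13.2% of JPI-289 thinned PT-like cells and Hadhb in 13.6% and 12.8%. For both genes the intervals overlapped. A Pdk4 UMI was found in 8.36% (interval 6.94 to 9.98) of the PT-like cells in the control and in 57.3% (54.3 to 60.2) under JPI-289, and without thinning in 20.2% and 75.9%. In red blood cell-like cells, which should lack most of these transcripts and had medians of 1519.5 and 1531 UMIs, it was found in 0 of 56 thinned control cells, which allows a share of up to 5.36%, and in 15.1% (interval 8.48 to 24.0) of 93 JPI-289 cells, or 1.32% and 27.6% without thinning. The share in PT-like cells of the JPI-289 library was above that of the red blood cell-like cells.

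The members that were lower in level were also found in fewer cells. Eci1 was found in 33.0% of thinned control and 11.8% of thinned JPI-289 PT-like cells (56.6% and 28.7% without thinning), Cyp4a14 in 17.4% and 4.57% (32.6% and 9.72% without thinning) and Etfb in 51.2% and 29.2% (72.3% and 50.6% without thinning). In red blood cell-like cells no thinned cell of either library had an Eci1 UMI, which allows up to 5.36% of 56 control and 3.23% of 93 JPI-289 cells, and Etfb was found in 12.5% and 3.23%. A Cyp4a14 UMI was found in 1.79% of these control cells and in none of the 93 JPI-289 cells. Ppargc1a was found in 4.71% of thinned control and 0.616% of thinned JPI-289 PT-like cells (12.8% and 2.43% without thinning), and in no red blood cell-like cell. Acadl, in contrast, was found in 32.7% and 40.1% (58.3% and 62.9% without thinning), against 8.93% and 7.53% of thinned red blood cell-like cells. Summed over the 19 mitochondrial enzymes and carriers, the median thinned PT-like cell had 5 UMIs in the control (quartiles 3 and 7) and 3 in the JPI-289 library (quartiles 2 and 5), and 2.39% and 5.72% of cells had none. For the 7 peroxisomal genes the median was 3 UMIs in both.

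The members also varied among PT-like clusters of the same library. In the control, the mitochondrial enzymes and carriers summed to 6684 CPM in cluster 0, 4680 in cluster 9, 4575 in cluster 18 and 2386 in cluster 14. In the JPI-289 library they summed to 3720 in cluster 4, 3231 in cluster 2 and 2846 in cluster 10, so all 3 lay above cluster 14 and below the other control clusters. Pdk4 ranged from 50 to 466 CPM over the 4 control clusters and from 919 to 1314 over the 3 JPI-289 clusters, without overlap, and was at 178 in the 22 control cells of cluster 2. The CYP4 sum overlapped, from 485 to 1933 in the control and from 329 to 1221 in the JPI-289 clusters, and so did the peroxisomal sum, from 1730 to 4014 and from 2832 to 3467. Cluster 14, with a median of 2649 UMIs per cell, had the highest early-segment marker sum, 9732 CPM, and the nuclear RNAs Neat1, Snhg11 and Gm26917 were among its leading genes.

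**Figure D3:**
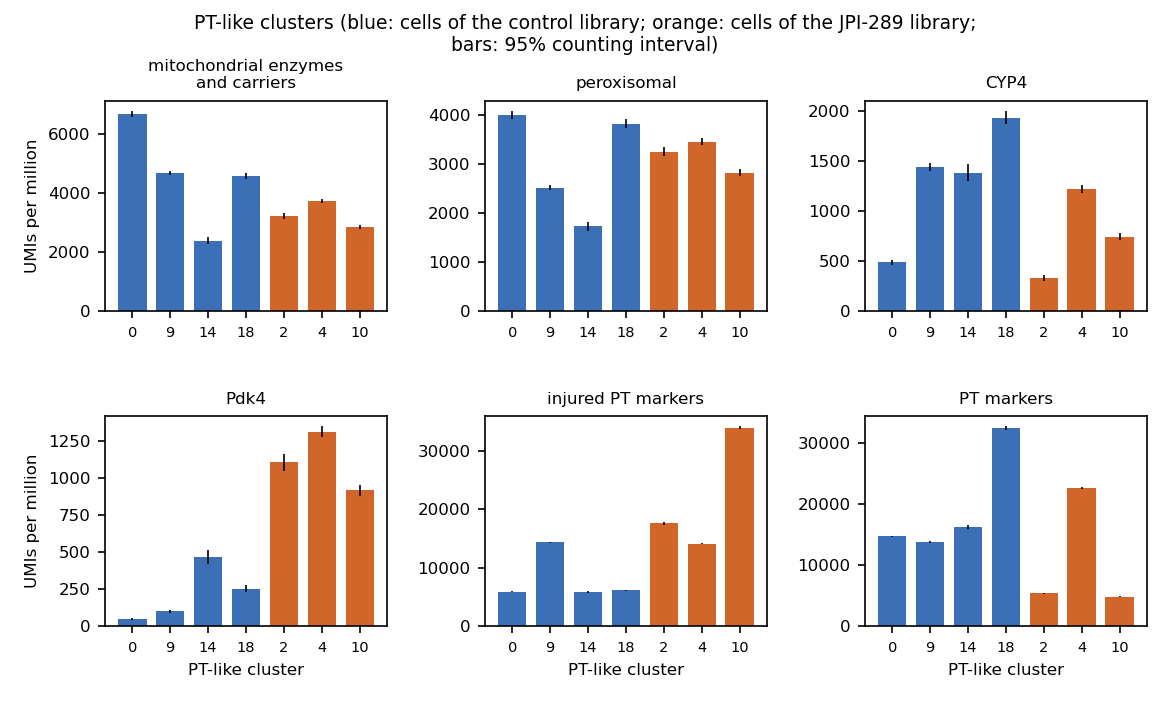
Level (CPM) of the mitochondrial, peroxisomal and CYP4 sums, Pdk4, injured PT markers and PT markers in the 4 control (blue) and 3 JPI-289 (orange) PT-like clusters, with 95% counting intervals. Pdk4 is at 919 or more in the 3 JPI-289 clusters and at 466 or less in the 4 control clusters, while the other member sums overlap between the libraries.

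In clusters 2 and 10 the injury markers scored above the PT markers, and these clusters held 1152 JPI-289 but 22 control cells. Without them 494 JPI-289 and 1764 control PT-like cells remained. Of these JPI-289 cells 478 were in cluster 4, with injured PT markers at 14155 CPM, against 5829 in control cluster 14 and 14361 in control cluster 9. Late-segment markers were at 222 CPM in cluster 4, against 33.5 in cluster 2 and 45.4 in cluster 10 of the same library. The part of injury and segment in the values that follow was not tested. Without clusters 2 and 10 the median log2 ratio of the mitochondrial enzymes was -0.36, in place of -0.60, and that of the CYP4 members -2.11. Ehhadh (log2 ratio 1.01) and Cyp4b1 (1.23) were then at least 2-fold higher beside Pdk4 (3.12), and 9 members were at least 2-fold lower, now with Acsl1 at -1.62. The 23.5% and 9.02% of all genes given above are for the full PT-like class, so these counts have no share of all genes beside them. Kap was among the leading genes of cluster 4 and of control cluster 18, where late-segment markers were at 771 CPM. Cyp4b1 was at 1112 CPM in control cluster 18 and 1087 in cluster 4, Ehhadh at 726 and 929, and Acsl1 at 75.6 and 48.5. Pdk4 was at 256 and 1314. Within a library, PT-like cells thinned to 1000 UMIs were also split by whether they had a UMI of Havcr1, the kidney injury molecule. In the control, 104 cells with and 1235 without were compared, and in the JPI-289 library 313 and 824. The mitochondrial sum was slightly lower in cells with a Havcr1 UMI in the control (log2 ratio -0.26, interval -0.40 to -0.12) and close to level in the JPI-289 library (-0.05, interval -0.16 to 0.05). Cyp4b1 was higher in the cells with a Havcr1 UMI in both libraries, by a log2 ratio of 1.54 (1.20 to 1.85) and 1.06 (0.82 to 1.30). Pdk4 was higher in them by 0.89 (0.18 to 1.5) in the control and by 0.20 (0.03 to 0.37) in the JPI-289 library.

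The mitochondrial sum differed more between the libraries in early-leaning than in late-leaning cells, though not every member did. PT-like cells were divided by whether their UMIs leaned to early markers such as Slc5a2 and Slc5a12 (1148 control and 984 JPI-289 cells) or to late markers such as Slc7a13 (480 and 283), and 158 and 379 cells leaned to neither. This split is a range and not a cell type, with 66 and 37 early-leaning and 73 and 31 late-leaning cells near the dividing line. Both marker sums were lower in the JPI-289 library, from 3792 to 1479 CPM for early and from 330 to 129 for late markers. Of the 944 late-marker UMIs in PT-like cells of the JPI-289 library, 778 were in cluster 4, 45 in cluster 2 and 111 in cluster 10. The lean thus overlapped with the division by clusters led by injury markers. Segment and injury were not told apart in the ratios below. The mitochondrial sum had a log2 ratio of -0.71 (interval -0.75 to -0.68) in early-leaning and -0.37 (-0.41 to -0.33) in late-leaning cells. Acadm contributed to this, with -1.31 (-1.45 to -1.18) against -0.24 (-0.39 to -0.10), as did Hadh with -1.14 against -0.25 and Etfa with -0.81 against 0.01. Eci1 (-1.81 and -1.76), Acaa2 (-1.30 and -1.35) and Decr1 (-1.06 and -1.13) showed no such gap, and Acsl1 (-0.79 and -1.01) and Slc25a20 (-0.89 and -1.11) had lower ratios in late-leaning cells, with overlapping intervals.

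Acaa1b differed between early- and late-leaning cells as well. It was at 638 CPM in early-leaning and 1242 in late-leaning cells of the control, and at 1429 and 1340 in the JPI-289 library, so that its log2 ratio was 1.16 (1.10 to 1.22) in early-leaning and 0.11 (0.04 to 0.18) in late-leaning cells. Pdk4 was at 92.1 and 256 in the control and 1039 and 1313 in the JPI-289 library, with log2 ratios of 3.49 and 2.36. For both genes the early-leaning cells of the control had the lowest of the 4 levels. Acads (-0.14 and 0.47) and Eci2 (-0.22 and 0.37) had ratios of opposite sign in the 2 kinds of cells. The intervals cover counting only, and with 1 library per condition the difference between the splits was not tested.

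**Figure D4:**
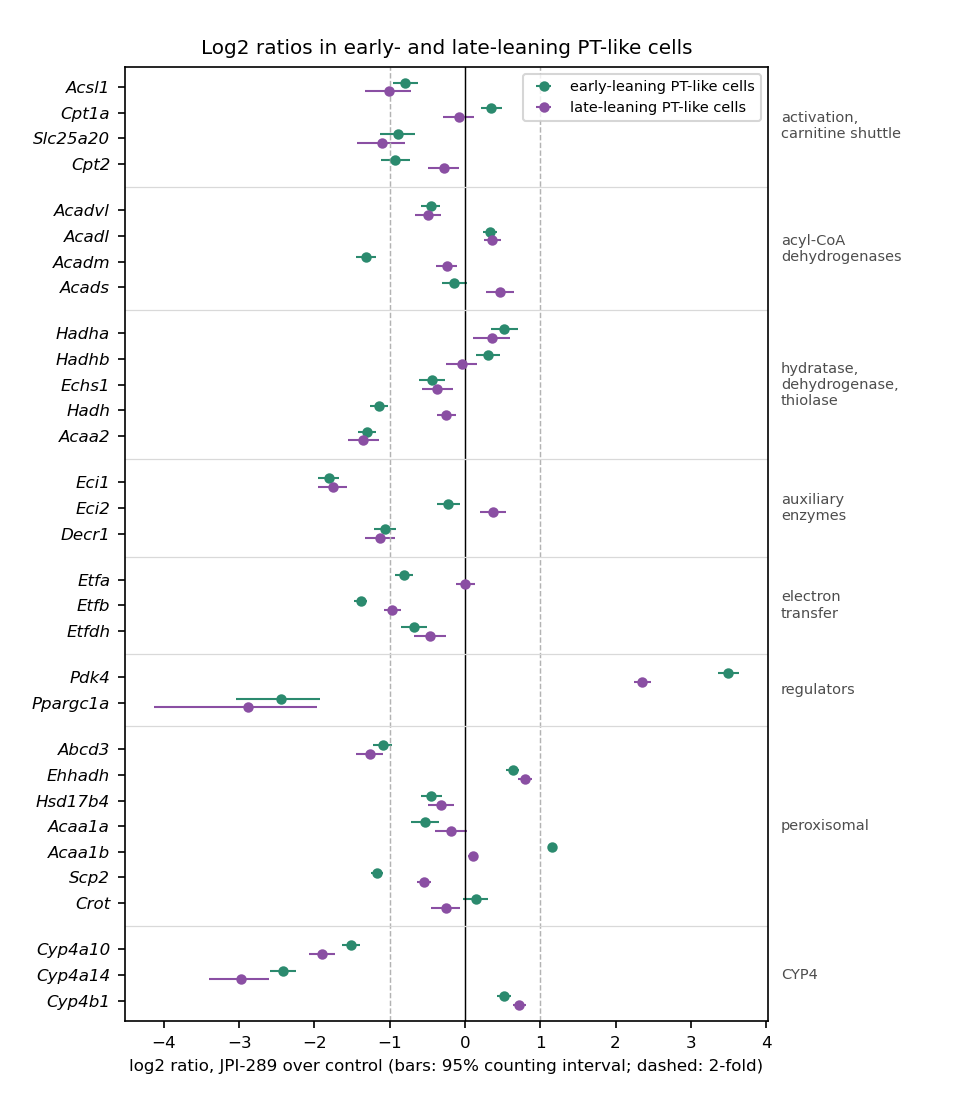
Log2 ratio of JPI-289 over control for each member in early-leaning (green) and late-leaning (purple) PT-like cells, with 95% counting intervals and dashed lines at 2-fold. Acadm, Hadh, Etfa and Acaa1b are among the many members that differ between the 2 kinds of cells by more than their intervals, such as Pdk4, Scp2 and Cpt2, while Eci1, Acaa2 and Decr1 nearly coincide.

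Outside the proximal tubule the same libraries were compared in LOH/DT-like (495 and 658 cells), CD-like (122 and 443) and EC-like cells (497 and 566). These comparisons share their libraries with the PT-like one, so a member that moves in all of them is not independent support. In LOH/DT-like cells all 31 members were measured, 4 were at least 2-fold lower, where 11.8% of all 9025 genes were, and 1 was at least 2-fold higher, where 6.66% were. The lower members were Cpt2 (64.6 and 27.9 CPM, log2 ratio -1.20), Acaa2 (152 and 69.8, -1.12), Cyp4a10 (40.3 and 11.9, -1.74) and Cyp4a14 (20.2 and 2.59, -2.85). The median of the members was -0.37 and that of all genes -0.07. With free RNA subtracted, at an estimated 33.3% of control and 5.10% of JPI-289 UMIs in these cells, the median was 0.34, so its direction was not settled. The estimate rests on red blood cell genes alone, and red cells captured with these cells would raise it as well.

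In CD-like cells 30 members were measured, all but Cyp4a14, of which 3 were at least 2-fold lower, where 14.1% of all 8855 genes were, and 4 at least 2-fold higher, where 7.6% were. Cpt2 (41.4 and 11.8 CPM, log2 ratio -1.79), Eci1 (64.2 and 31.4, -1.02) and Etfb (288 and 141, -1.03) were lower. Pdk4 (43.9 and 212, 2.26), Cyp4b1 (5.91 and 37.3, 2.57), Acaa1b (14.4 and 58.3, 1.99) and Ehhadh (15.2 and 49.8, 1.68) were higher, the latter 3 from 7, 17 and 18 UMIs in the control. Free RNA was estimated at 2.15% and 2.71% of the UMIs of these cells, and its part in such low sums was not tested. The median of the members was -0.23, against -0.08 for all genes, and 0.05 with cells thinned to 1000 UMIs. The CD-like cells had medians of 7397 UMIs in the control against 1554 in the JPI-289 library. Ppargc1a, which was far lower in PT-like cells of the JPI-289 library, was at 60.8 and 61.6 CPM in CD-like cells (log2 ratio 0.02, interval -0.44 to 0.48) and at 52.1 and 40.4 in LOH/DT-like cells (-0.37, interval -0.85 to 0.11).

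In EC-like cells 9 members were at least 2-fold lower. These cells lay in clusters that the libraries shared unequally: cluster 5 held 220 control and 257 JPI-289 cells, cluster 8 held 96 and 309, and cluster 17 held 181 control cells and no JPI-289 cell, and the part of this in the values was not tested. Of 30 measured members, all but Ppargc1a (8 and 0 UMIs), 25 were below 0 and 9 were at least 2-fold lower, where 18.5% of all 9712 genes were, and 1 was at least 2-fold higher, where 5.23% were. Of all 9712 genes 5719 were below 0 as well. The median of the members was -0.63 against -0.18 for all genes. The 9 lower members were Acadvl (log2 ratio -1.04), Acadm (-1.14), Eci1 (-1.50), Decr1 (-1.23), Etfb (-1.42), Abcd3 (-1.40), Scp2 (-1.08), Cyp4a10 (-2.11) and Cyp4a14 (-2.58). Both Cyp4a genes had low sums in these cells, 71 and 14 UMIs for Cyp4a10 and 51 and 7 for Cyp4a14. All 9 were also lower in barcodes with under 100 UMIs, which hold mainly free RNA, with log2 ratios from -0.997 (Abcd3) to -2.17 (Cyp4a14). PT markers averaged 1.12 log2 units above the median cluster in cluster 5, and 0.95 and 0.26 below it in clusters 8 and 17. The part of proximal tubule RNA in the EC-like values was not tested. Cyp4b1 went the other way, at 172 CPM in the control against 322 in the JPI-289 library (log2 ratio 0.91, interval 0.71 to 1.11), and its thinned share of cells was 17.8% and 26.1% (32.2% and 38.7% without thinning), against 5.36% and 2.15% of thinned red blood cell-like cells. Pdk4 was at 13.8 and 172 (log2 ratio 3.62). The red blood cell genes used to estimate free RNA gave 4.27% in control and 40.3% in JPI-289 EC-like cells, and subtracting it took members to 0 and gave a median of -6.06. This estimate rests on red blood cell genes alone, which cannot tell free RNA from red cells captured with these cells, so how much of the difference it covers was not settled.

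**Figure D5:**
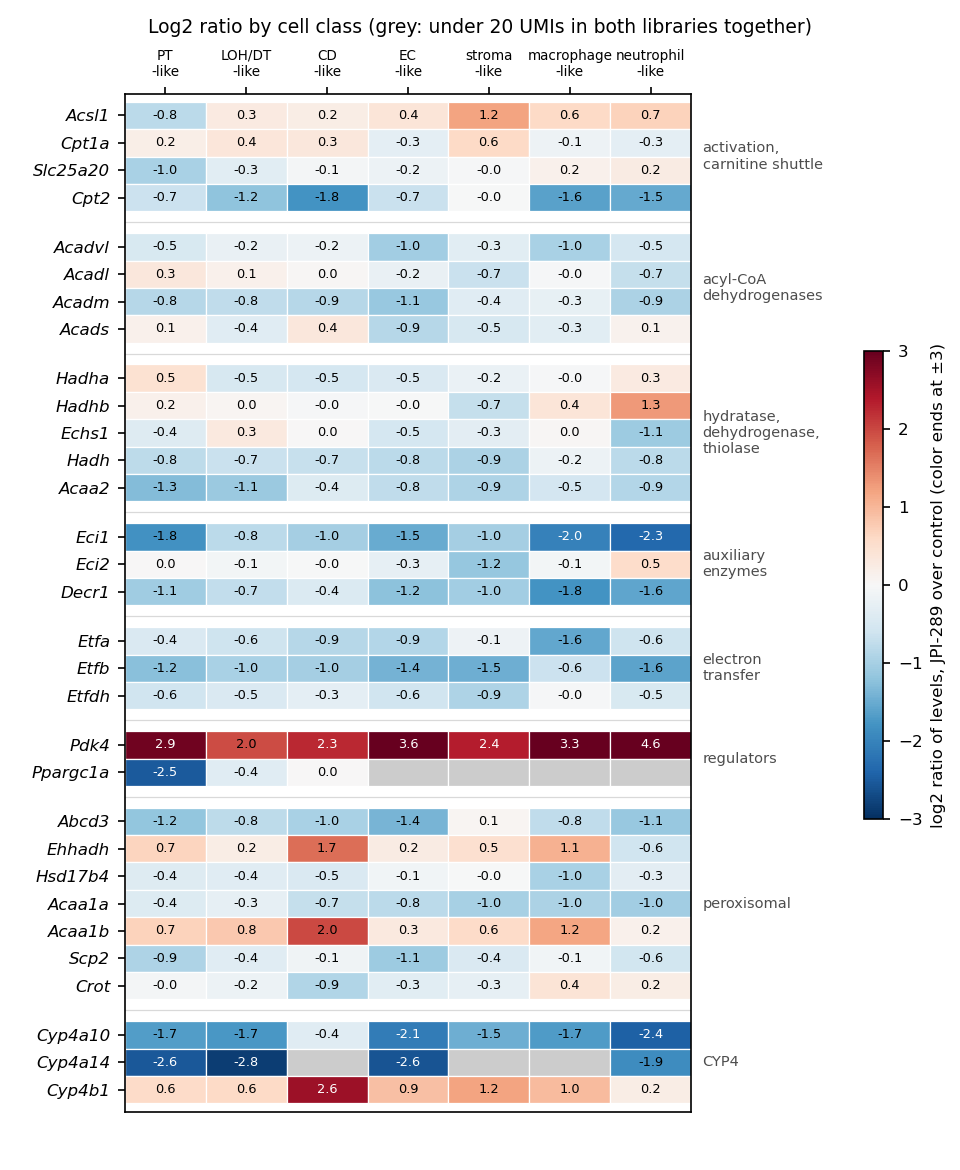
Log2 ratio of JPI-289 over control for the 31 members (rows, by role) in 7 cell classes (columns), with red for higher and blue for lower in the JPI-289 library and grey for genes under 20 UMIs. Pdk4 is red in all 7 columns, from 1.96 in LOH/DT-like to 4.64 in neutrophil-like cells, and Eci1 and Etfb are blue in all 7.

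Pdk4 was higher in the JPI-289 library in all 9 named classes, and also in RNA outside cells. In barcodes with under 100 UMIs, which hold mainly free RNA, it was at 83.9 CPM in the control against 1041 in the JPI-289 library. In neutrophil-like cells it had 2 and 231 UMIs and in macrophage-like cells 9 and 107 (log2 ratio 3.30, interval 2.39 to 4.54). Its level in these 2 classes of the JPI-289 library was 143 and 77.8 CPM. Of all 9 named classes of that library only PT-like cells, at 1144 CPM, had a level above that of the free RNA. No interval is given for the free RNA, which held 343770 UMIs, so this order was not settled. LOH/DT-like cells came next at 674. By red blood cell genes, free RNA was estimated at 5.10% of LOH/DT-like, 5.51% of neutrophil-like and 42.6% of macrophage-like UMIs in this library. A level below that of the free RNA thus does not give the part that came from it. How much of the Pdk4 in each class came from the cells was not tested. Other members followed the PT-like direction in the free RNA as well, Eci1 at 243 and 58.2 and Cyp4a10 at 492 and 116.

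The wider pathway in PT-like cells was described from lists chosen by function. Of 19 measured other genes of mitochondrial oxidation, 5 were at least 2-fold lower and 1 higher, with a median log2 ratio of -0.75. Acot13, a thioesterase, was at 295 and 89.99 CPM (log2 ratio -1.71), and Acot9, another, at 24.8 and 59.2 (1.26). Of 19 other peroxisomal genes, 13 were at least 2-fold lower and none higher, with a median of -1.44, so this list lay lower than the peroxisomal members. Decr2, the peroxisomal dienoyl-CoA reductase, was at 130 and 20.5 (log2 ratio -2.66), Hacl1, which shortens branched chains, at 112 and 19.4 (-2.52), and Phyh, which starts that route, at 466 and 409 (-0.19). Of 16 peroxins, which build the organelle, 4 were at least 2-fold lower, with a median of -0.56.

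Several genes listed for the supply of substrate had lower RNA levels, and supply itself was not measured. All 7 measured genes of the carnitine supply list were below 0 and 4 were at least 2-fold lower. Among them Slc22a5, the carnitine transporter OCTN2, was at 122 and 43.4 CPM (log2 ratio -1.49). The list also holds serine hydroxymethyltransferase genes, which serve other routes as well, so its counts do not describe carnitine transport and synthesis alone. Of 19 genes of uptake and activation 9 were at least 2-fold lower and 1 higher. Fabp3 and Fabp1, fatty acid binding proteins, were at 245 and 16.7 (log2 ratio -3.87) and at 33.6 and 3.56 (-3.22), whereas Fabp4, of the same family, was at 24.8 and 42.1 (0.76). Fabp4 was also among the leading genes of EC-like clusters 5, 8 and 17, and the part of RNA from such cells was not tested. Of 9 other CYP4 and omega oxidation genes all 9 were below 0 and 4 were at least 2-fold lower, with Cyp4a31 at 330 and 74.1 (log2 ratio -2.15). Ketone metabolism was mixed, with 1 of 7 at least 2-fold lower and 1 higher.

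The nuclear regulators were mostly lower and PPAR alpha responders were mixed. Of 15 measured nuclear regulators 8 were at least 2-fold lower and none higher, with a median of -1.41. In all 10 were below 0, and the others were above it. The highest of them was Rxrb, a gene of the RXR family, at 23.7 and 42.3 CPM (log2 ratio 0.84). Esrrg, a nuclear receptor partner of PGC-1 alpha, was at 30.9 and 3.42 CPM (log2 ratio -3.15), Ppargc1b at 23.9 and 5.33 (-2.15) and Sirt3, the mitochondrial deacetylase, at 68.8 and 15.9 (-2.11). Of 14 PPAR alpha responders outside oxidation 4 were at least 2-fold lower and 2 higher. Plin2, which coats lipid droplets, was at 553 and 6610 (log2 ratio 3.58) and Hilpda, an inhibitor of lipolysis, at 5.79 and 38.2 (2.71). Plin2 is also on the list of injured PT markers used here. Pdk2, a relative of Pdk4, was at 203 and 30.4 (log2 ratio -2.74), and Vnn1 at 221 and 42.3 (-2.38). Of 12 fatty acid synthesis genes 2 were at least 2-fold lower and 1 higher, Acly at 48.6 and 133 (1.45). Each count past 2-fold stands against the 23.5% and 9.02% of all genes given above. Each count below 0 stands against the 6563 of 11302 genes below 0.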

How the data were processed

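Single-cell RNA-seq was made as 1 control and 1 JPI-289 kidney library, with a kit that reads transcripts from their start. Shares of 50-base words were taken over whole transcripts, and the share within the part read was not measured. The authors aligned the reads with Cell Ranger 5.0.1 and deposited matrices of UMI counts per gene and barcode, all barcodes included, so cells were called here. Barcodes over 3338 UMIs in the control (1498) and over 2618 in the JPI-289 library (2065) were taken as cells by their total. The others were called from 500 UMIs upward by comparison with low barcodes (false discovery rate 0.01). Cells over 50% mitochondrial UMIs were left out. Cells were clustered with scanpy 1.11.5 (2000 variable genes, 30 components, leidenalg 0.10.2 at resolution 1) in Python 3.11.15. The doublet caller marked 0 and 1 cells and had not worked, so doublets were not removed. Counts were summed per class and library and given as CPM (UMIs scaled to a class total of 1000000) with exact intervals. Ratios were taken for genes with at least 20 UMIs, and 2-fold was the limit for a count of members. Scripts were tested on simulated data. The members and lists were chosen with earlier results of these data known. All members are named, and of each pathway list only genes among the 3 highest or 3 lowest ratios with at least 100 UMIs. Clusters were named from marker lists, with at least 3 detected markers. Total UMIs set the precision, which covers counting error only. The result for 1 gene of the pathway lists is not reported here.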

Additional observations from a re-analysis of the deposited data

How the results depend on the processing

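With 1 library per condition no library could be left out, so nothing here measures the spread between animals. Of the values recomputed for the comparisons, 112 moved by less than their error, or for counts by less than 1.5 times, and 20 moved further, none with a change of direction in a called value. The median of the members did take either sign among the settings in LOH/DT-like (-0.55 to 0.34) and CD-like cells (-0.49 to 0.05). For single members, 393 values were classed as the same, 165 as moved and 0 as reversed. Acads, Cpt1a, Crot, Eci2, Etfa and Hadhb took either sign among the settings in PT-like cells. In PT-like cells the number of members at least 2-fold lower ran from 6 to 11. Those at least 2-fold higher numbered 3 without the clusters led by injury markers and 2 in early-leaning cells. The shares of all genes given above, 23.5% lower and 9.02% higher, hold for the main setting only. Without those clusters the median log2 ratio was -0.36 for mitochondrial enzymes, -0.20 for peroxisomal and -2.11 for CYP4 members. With all PT-like clusters kept and values centred on the median of all genes, the mitochondrial, peroxisomal and CYP4 medians were -0.41, -0.20 and -1.48. In early-leaning cells the mitochondrial and CYP4 medians were -0.79 and -1.52, and in late-leaning cells the mitochondrial, peroxisomal and CYP4 medians were -0.28, -0.26 and -1.90. Equal weight of each cell gave a mitochondrial median of -0.84. The CYP4 median was -1.43 with cells thinned to 1000 UMIs and -1.78 at Leiden resolution 0.5. Summing all barcodes gave -0.60 for peroxisomal and -1.92 for CYP4 members. Subtracting free RNA gave 0.34 in LOH/DT-like and -6.06 in EC-like cells, where the subtraction took members to 0. Otherwise the cause was not tested. Acaa2, Eci1, Cyp4a10, Cyp4a14 and Pdk4 stayed past 2-fold in all 18 settings, Abcd3, Etfb and Ppargc1a in 17 and Decr1 in 16. No paired analysis was possible because each condition had 1 library. Low sums outside PT-like cells limit what depth can show.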

Other observations

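The 31 members were at 6855 CPM in control barcodes with under 100 UMIs and at 5905 in those of the JPI-289 library, against 9599 and 8597 in PT-like cells. In these barcodes Acaa2 had a log2 ratio of -1.75, Cyp4a14 of -2.17, Acaa1b of 0.79 and Ehhadh of 0.56. The thinned PT-like cells without any CYP4 UMI made up 45.9% in the control against 59.0% in the JPI-289 library.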
